A study of Mus musculus with 2 samples.

Results

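The enzymes that add methyl groups to DNA and those that remove them were examined in epiblast stem cells (EpiSC) of the mouse, a pluripotent cell type that resembles the postimplantation epiblast. The genes are Dnmt3a, Dnmt3b, Dnmt3l, Dnmt1, Uhrf1, Tet1, Tet2, Tet3 and Tdg. They were chosen by gene name, and every non-control probe that the array files assign to them was kept. This gave 9 of the 22753 genes with a RefSeq name and 19 of the 39429 probes. The 2 groups are EpiSC clone 2 and EpiSC clone 1, both at passage 9, wildtype, female and of C57BL/6 background, and the labels name no treatment other than trypsin for collection. Each group is a single clone with 1 array of total RNA, and no other cell type was analysed here. The series was made to set these lines against EpiSC described earlier. Here the questions are which of these genes were present and how far the clones differed in them.

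Cytosines in mammalian DNA are methylated mostly where a C is followed by a G (CpG). DNMT3A and DNMT3B place new methyl groups with help from the catalytically inactive DNMT3L, and DNMT1 copies the pattern onto the new strand after replication, to which UHRF1 recruits it. TET1, TET2 and TET3 oxidise methylated cytosine, and the glycosylase TDG cuts out some of the oxidised products so that repair restores a plain cytosine. The genome of the epiblast is remethylated around implantation, and DNMT3B is the main de novo enzyme of that stage.

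Signals are log2 processed intensities of the spots relative to the 75th percentile of all probes on the array (736 intensity units in clone 2 and 830 in clone 1). Differences are clone 2 minus clone 1. With 1 array per clone no p-value can be given, and a difference has no check by replicate cultures. On the same scale the 153 negative controls had a median of -6.69 in clone 2 and -6.70 in clone 1, and the lowest signal called well above background was -4.57 in clone 2 and -4.56 in clone 1. Probes printed 10 times on each array give the spread between spots. Over 265 such detected probes the median SD of the difference between arrays was 0.086, and it was 0.16 over the 62 probes with a signal below -2. This spread covers spots only, not separate cultures, RNA preparations or labellings. Signals of different probes depend on their sequences, so levels are compared between clones within a probe and not between genes.

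The label of the cells was checked against marker genes. All 7 genes listed for primed epiblast (Pou5f1, Nanog, Sox2, Fgf5, Otx2, Pou3f1 and Nodal) were detected on both arrays. Over all genes this share was 61.3%. Pou5f1, Nanog and Sox2 mark pluripotent cells in general, so they do not separate primed from naive cells. Of 9 markers of naive pluripotent cells 5 were detected on both arrays. Zfp42, Nr0b1, Prdm14 and Dppa3 were not well above background on either. The naive markers detected, Esrrb, Klf2, Klf4, Tbx3 and Tfcp2l1, had a median difference of 0.43 and a summed signal of 2.85 in clone 2 and 2.41 in clone 1 (in multiples of the 75th percentile). Of these 4 were higher in clone 2, by up to 1.67-fold for Tfcp2l1, and Esrrb was lower by 0.11. Markers of other cells were present too. All 7 fibroblast markers were detected on both arrays, with a summed signal of 86.7 in clone 2 and 78.8 in clone 1. Their median difference was 0.14. For the primed epiblast list the summed signal was 75.5 in clone 2 and 72.7 in clone 1, with a median difference of 0.024. Of 5 macrophage markers 3 were detected on both arrays, with a summed signal of 3.01 in clone 2 and 2.59 in clone 1, while Cd68 was detected in clone 2 only and Ptprc in clone 1 only. Of 4 neural plate markers 2 were detected on both arrays, and Pax6 and Neurog2 on neither. The part of such cells in the signals below was not tested.

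The probes are 60 bases long. Sequences of 8 of them are shown. They hold the Tet1 probe with the largest difference and the one nearest the 5′ end, both probes that cross a splice junction (Dnmt1 and Uhrf1), the Tet3 probe without signal beside the Tet3 probes that gave one, and the brightest Tdg probe. The other probes, those of Tet2 and Dnmt3b included, are given by position. Each of the 8 sequences shown holds at least 1 reading frame without a stop codon over its length. CpG sites, the substrate of the enzymes, are in capitals.
Tet1 A_51_P512172: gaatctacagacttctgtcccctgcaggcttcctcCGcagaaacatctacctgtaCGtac
Tet1 A_55_P2123002: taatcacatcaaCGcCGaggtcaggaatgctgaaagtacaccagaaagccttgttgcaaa
Tet3 A_51_P199339: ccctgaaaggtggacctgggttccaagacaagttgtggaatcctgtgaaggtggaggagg
Tet3 A_55_P2175260: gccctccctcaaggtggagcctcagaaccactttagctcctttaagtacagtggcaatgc
Tet3 A_52_P491273: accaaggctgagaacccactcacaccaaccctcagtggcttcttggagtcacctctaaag
Dnmt1 A_51_P195573: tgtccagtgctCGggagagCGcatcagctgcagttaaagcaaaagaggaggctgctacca
Uhrf1 A_66_P120074: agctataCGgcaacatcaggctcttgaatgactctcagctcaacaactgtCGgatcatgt
Tdg A_55_P2044091: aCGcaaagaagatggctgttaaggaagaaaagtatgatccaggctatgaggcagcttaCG
Positions in the text are on mm9, per the file headers. No gene model of that build was used, so exons and untranslated regions are not assigned. The Dnmt1 and Uhrf1 probes shown here span 369 and 654 bases of the genome, more than their own length, and so cross a splice junction.

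All 9 genes were detected on both arrays by at least 1 probe, where 61.3% of all genes were. Of their 19 probes, 18 were well above background on both arrays, against 54.7% of all probes with a value. The exception was 1 of 3 Tet3 probes. No gene was 2-fold apart between clones, while 2.56% of all genes detected on both arrays were, 1.52% higher and 1.03% lower in clone 2. None was 1.5-fold apart, while 9.1% of all genes were. Among the 18 detected probes the counts were also 0, beside 2.79% of all detected probes at 2-fold and 9.58% at 1.5-fold. Here and throughout, a gene is represented by its brightest probe, averaged over both arrays. In bulk RNA, fewer cells of a type and less RNA per cell cannot be told apart.

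**Figure D1:**
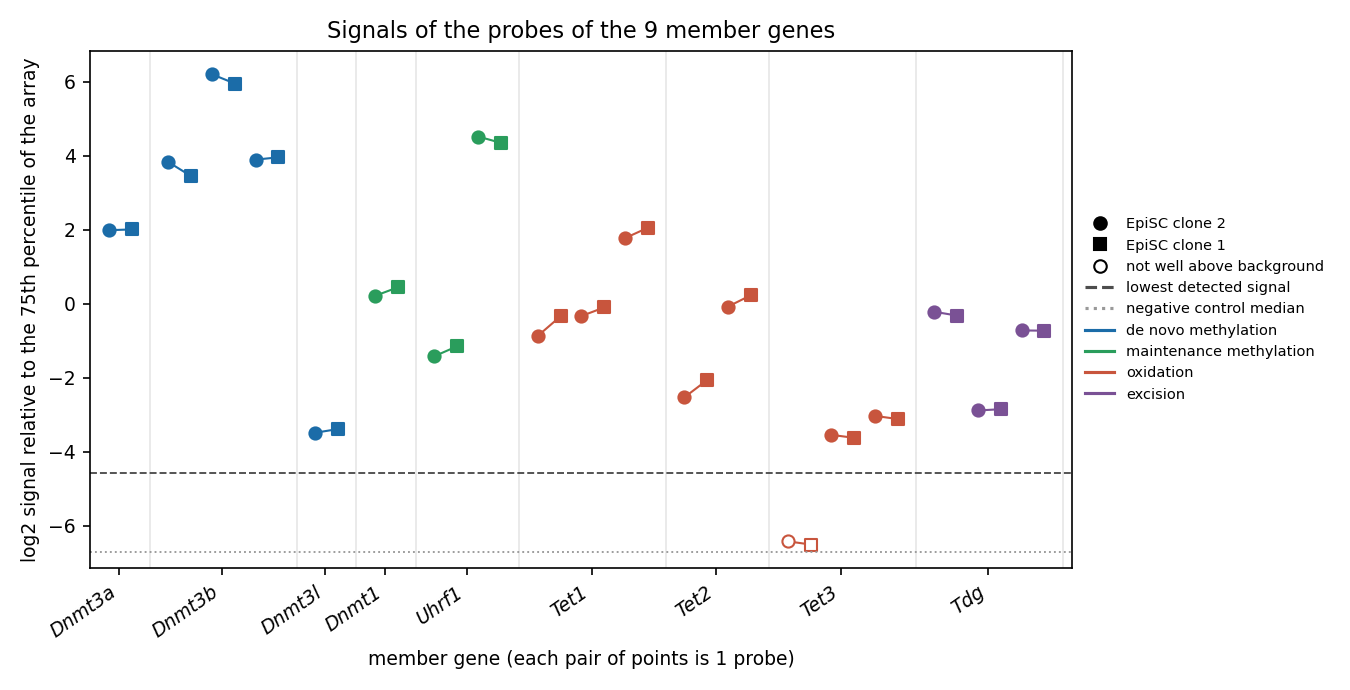
Log2 signal over each array's 75th percentile (vertical axis) for each of the 19 probes, grouped by gene, with clone 2 as the circle on the left and clone 1 as the square on the right of each pair, 1 array per clone. Only the open Tet3 pair, at -6.42 and -6.50, lies below the lowest detected signal (dashed), close to the negative control median (dotted), and heights of different probes are not comparable.

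The de novo methyltransferases gave strong signals in both clones, and their differences were small. Dnmt3b, the main de novo enzyme of the epiblast, is read by 3 probes within 1365 bases of chromosome 2. The brightest, at 153513403 to 153513462, read 6.21 in clone 2 and 5.96 in clone 1, from processed intensities of 54406 and 51585. This is 7634 times the median negative control in clone 2 and 6478 times in clone 1, and neither spot was saturated. The probe was higher in clone 2 by 0.25 (1.19-fold), with a standard error of 0.20 from the scanner software's error model. A second probe, at 153512991 to 153513050, had 3.83 in clone 2 and 3.45 in clone 1, a difference of 0.38 ± 0.20 (model standard error). The third, at 153512098 to 153512157, had 3.90 and 3.96 in clones 2 and 1, a difference of -0.063. The probes thus disagreed in sign over a range of 0.45, while the median range was 0.36 over the 467 genes with 3 detected probes, of which 45.0% had all probes on 1 side of 0.

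Dnmt3a, the other de novo methyltransferase, was nearly equal in the clones. Its probe on chromosome 12 from 3914320 to 3914379 had 1.99 in clone 2 and 2.01 in clone 1, a difference of -0.022 that is smaller than the spread between repeated spots. The array annotation lists 2 Dnmt3a transcripts for that probe, which are therefore not told apart. Dnmt3l, the cofactor that has no catalytic activity of its own, gave a weak signal. Its probe on chromosome 10 from 77526112 to 77526171 had -3.48 in clone 2 and -3.38 in clone 1, which is 1.09 and 1.18 above the lowest detected signal. The processed intensities of Dnmt3l were 65.8 ± 9.2 in clone 2 and 79.6 ± 10.7 in clone 1 (error of the spot, by the software's model). The difference of -0.10 was inside its standard error of 0.28 and became 0.36 with normexp background correction.

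The maintenance genes were both present. Dnmt1, which copies methylation after replication, was read by the junction probe on chromosome 9 between 20711973 and 20712341. It had 0.22 in clone 2 and 0.45 in clone 1, a difference of -0.23 ± 0.20 (model standard error), or 1.17-fold lower in clone 2. Uhrf1, which binds hemimethylated DNA, is read by 2 probes on chromosome 17 that gave opposite signs, where 62.1% of genes with 2 detected probes had both on 1 side of 0. The probe at 56462770 to 56462829 had 4.53 in clone 2 and 4.35 in clone 1, higher in clone 2 by 0.17. The junction probe, between 56451668 and 56452321, had -1.41 in clone 2 and -1.14 in clone 1, lower in clone 2 by 0.27. No direction between the clones can therefore be given for Uhrf1, and with the mean of both probes its difference was -0.05.

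Of the TET dioxygenases, Tet1 and Tet2 were lower in clone 2 by every probe (the dimmer Tet2 probe only without normexp correction), and Tet3 was close to equal. Tet1 is read by 3 probes spread over 27468 bases of chromosome 10, where the gene lies on the minus strand. The probe nearest its 3′ end, at 62274448 to 62274507, had 1.78 in clone 2 and 2.06 in clone 1. Its difference was -0.28 ± 0.20 (model standard error), or 1.22-fold. The middle probe, at 62276042 to 62276101, had -0.87 in clone 2 and -0.33 in clone 1. Its difference of -0.54 ± 0.21 (1.45-fold) was the largest among the 18 detected probes. The probe nearest the 5′ end, at 62301856 to 62301915, had -0.33 in clone 2 and -0.096 in clone 1. Its difference was -0.23 ± 0.21. All 3 Tet1 probes kept their sign under each of 9 processing alternatives, although the last came to -0.036 with normexp correction. Several of these alternatives leave a probe's difference unchanged or shift all probes by the same amount, so they are not independent checks. Of the genes with 3 detected probes, 23.6% had every probe lower in clone 2, so agreement of this kind was common.

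Tet2 is read by 2 probes within 214 bases of chromosome 3. The brighter, at 133126751 to 133126810, had -0.072 in clone 2 and 0.24 in clone 1, a difference of -0.31 ± 0.20 (1.24-fold lower in clone 2). The dimmer, at 133126905 to 133126964, had -2.52 in clone 2 and -2.05 in clone 1, a difference of -0.47 ± 0.23. With normexp correction the dimmer probe came to 0.093, so its sign rests on the background correction, while the brighter kept its sign in all 9 alternatives. Of genes with 2 detected probes, 29.3% had both lower in clone 2.

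Tet3 was near the lower limit of detection. Its 3 probes lie over 34072 bases of chromosome 6, on the minus strand. The probe at 83319720 to 83319779 had -3.03 in clone 2 and -3.11 in clone 1, and the one at 83352743 to 83352802 had -3.54 and -3.62 in clones 2 and 1. Both differed by 0.08, well inside standard errors of 0.26 and 0.35. With normexp correction the differences were 0.40 and 0.57, so the near equality rests on the background correction. The standard errors belong to the processed signals and not to these values. Every probe of these genes with a signal below -2 rose in this setting, to 0.80 for the Tet3 probe that was not detected. The probe nearest the 3′ end, at 83318731 to 83318790, was below the detection limit in both clones, with processed intensities of 8.61 ± 8.58 in clone 2 and 9.15 ± 9.13 in clone 1. This is 1.21 and 1.15 times the median negative control. Its sequence is the third of those printed above.

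Tdg, the glycosylase that acts on some oxidised bases, did not differ beyond the spread between repeated spots by 2 of its 3 probes. The brightest, at 82110701 to 82110760 on chromosome 10, had -0.21 in clone 2 and -0.32 in clone 1, a difference of 0.10. The probe at 82112994 to 82113053 had -0.72 on both arrays, and the one at 82113115 to 82113174 had -2.88 in clone 2 and -2.84 in clone 1. The differences of these probes were 0.0062 and -0.036. With normexp correction the dim one of them came to 0.36, while the dim probes of the other genes also rose. It kept its sign in 6 of 9 alternatives. The 0.16 between repeated dim spots is a spread of the processed signals and not of normexp values. The annotation of 2 of the 3 probes also lists predicted transcripts that the RefSeq table does not pair with Tdg, so a part of their signal could come from a near copy. The 1 accession listed for each Tet1 probe is likewise not in the RefSeq table, and those probes were named Tet1 by symbol.

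**Figure D2:**
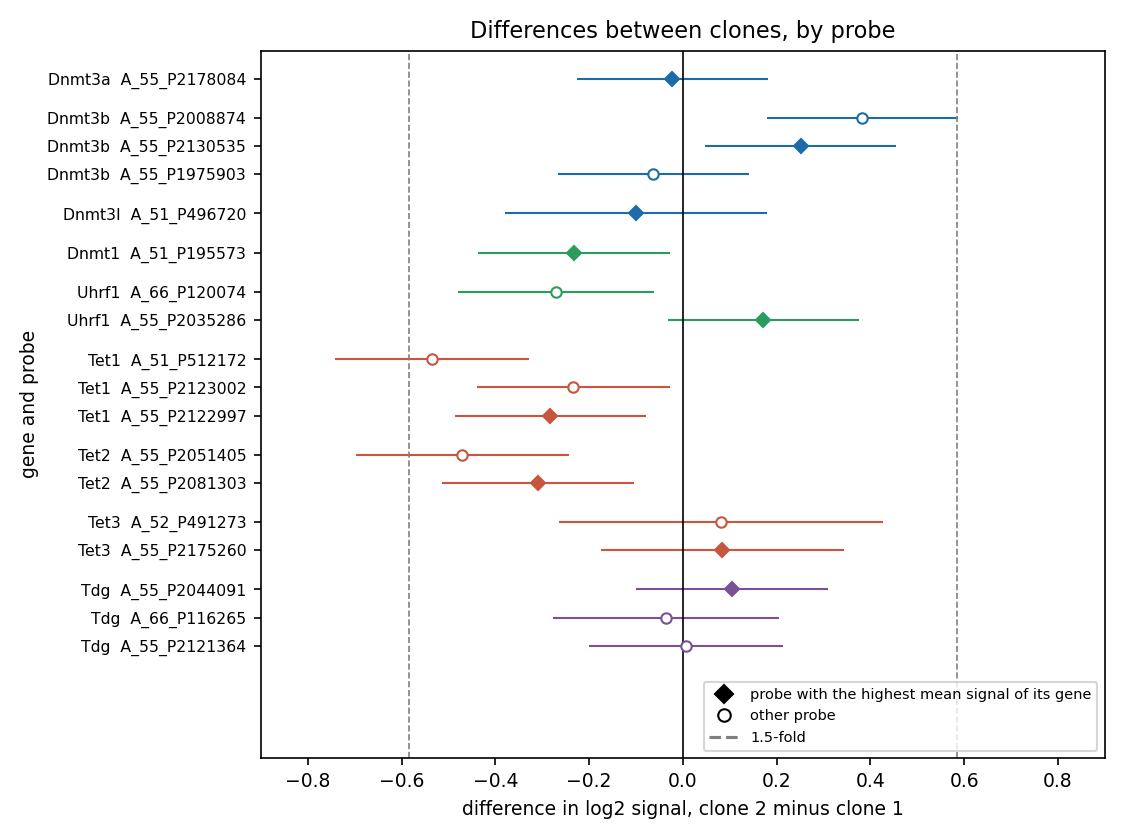
Difference in log2 signal, clone 2 minus clone 1 (horizontal axis), of the 18 detected probes, with bars for 1 standard error from the scanner software's error model and dashed lines at 1.5-fold. The 3 Tet1 and 2 Tet2 probes lie left of 0 (the dimmer Tet2 probe turns to 0.093 with normexp correction), the Dnmt3b and Uhrf1 probes fall on both sides, and none passes 1.5-fold.

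As a group the 9 genes showed no shift in 1 direction. By gene, 4 were higher and 5 lower in clone 2, where 42.9% of all genes detected on both arrays were lower in clone 2. Their median difference was -0.022, beside 0.047 over 13928 genes, and the values ran between -0.31 for Tet2 and 0.25 for Dnmt3b. By probe, 7 were higher and 11 lower in clone 2, where 46.4% of all detected probes were lower. Differences larger than 2 model standard errors occurred in 2 of the 18 probes, 1 of Tet1 and 1 of Tet2, where 16.2% of all detected single-spot probes passed that limit.  The middle 90% of all genes lay between -0.47 and 0.63, and each of the 9 lay inside this range.

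By role, the 5 detected probes of de novo genes had a median of -0.022 and the 3 of maintenance genes one of -0.23. The maintenance median is the value of the Dnmt1 probe, since the Uhrf1 probes lay on either side of it and differed in sign. The median was -0.28 over the 7 detected TET probes, of which 5 were lower in clone 2, and 0.0062 over the 3 Tdg probes. The TET median thus rests on Tet1 and Tet2, since both Tet3 probes were higher in clone 2. No spot of the 19 had an outlier flag, was saturated, or had an adjacent spot 2-fold apart in the same direction.

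**Figure D3:**
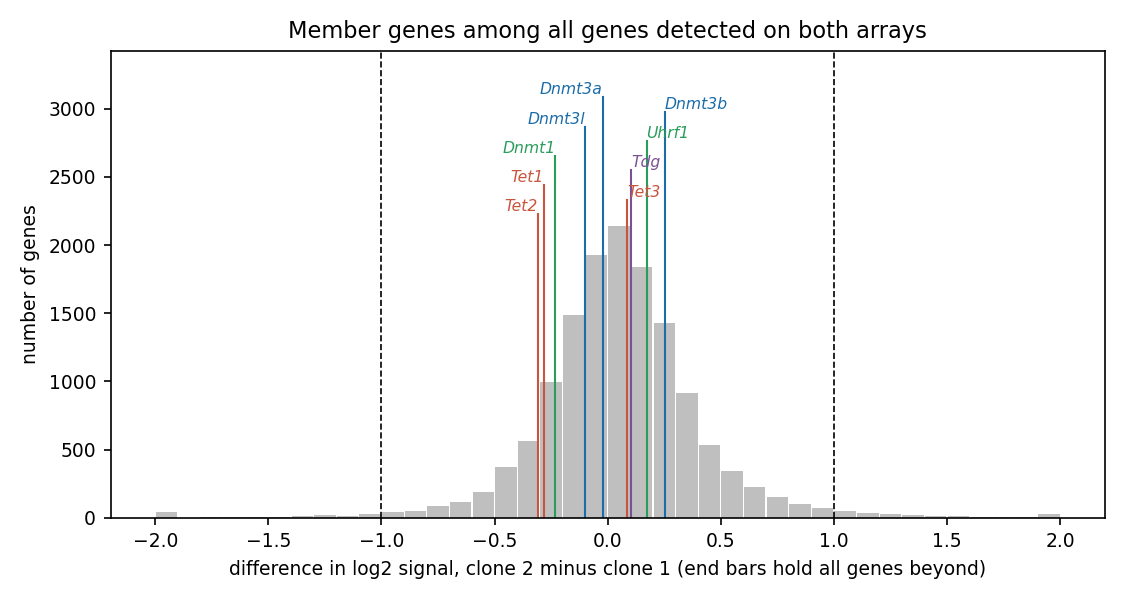
Number of genes (vertical axis) by difference in log2 signal, clone 2 minus clone 1, in bins of width 0.1 for 13928 genes detected on both arrays, with coloured lines at the 9 DNA methylation genes and dashed lines at 2-fold. All 9 stand in the central mass between -0.31 and 0.25, and the end bars hold all genes beyond the axis.

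The direction for most genes held under other processing choices, though these are not independent checks. The positive-and-significant flag and the lack of a filter leave a probe's difference unchanged. Scaling by the median or by detected probes, keeping outliers and leaving out spots beside a 2-fold neighbour each shift all these probes equally. By the brightest probe, or the mean of probes in the alternative that uses it, Dnmt3a, Dnmt1, Tet1 and Tet2 were lower and Dnmt3b, Tet3 and Tdg higher in clone 2 under all 10 alternatives, though several of these values came close to 0. For Dnmt3b this holds for 2 of 3 probes only, since the third was lower in clone 2 under all 9 alternatives that give a value per probe, between -0.30 and -0.05. Dnmt3b ran between 0.027 (normexp correction) and 0.26, Tet1 between -0.37 and -0.27, and Tet2 between -0.39 and -0.30. Tet3 ran between 8.5e-05 and 0.40, its highest value coming from normexp correction. Dnmt3l (0.36 with normexp correction) and Uhrf1 (-0.05 with the mean of its probes) changed sign under 1 alternative each. No gene reached 1.5-fold under any of them.

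**Figure D4:**
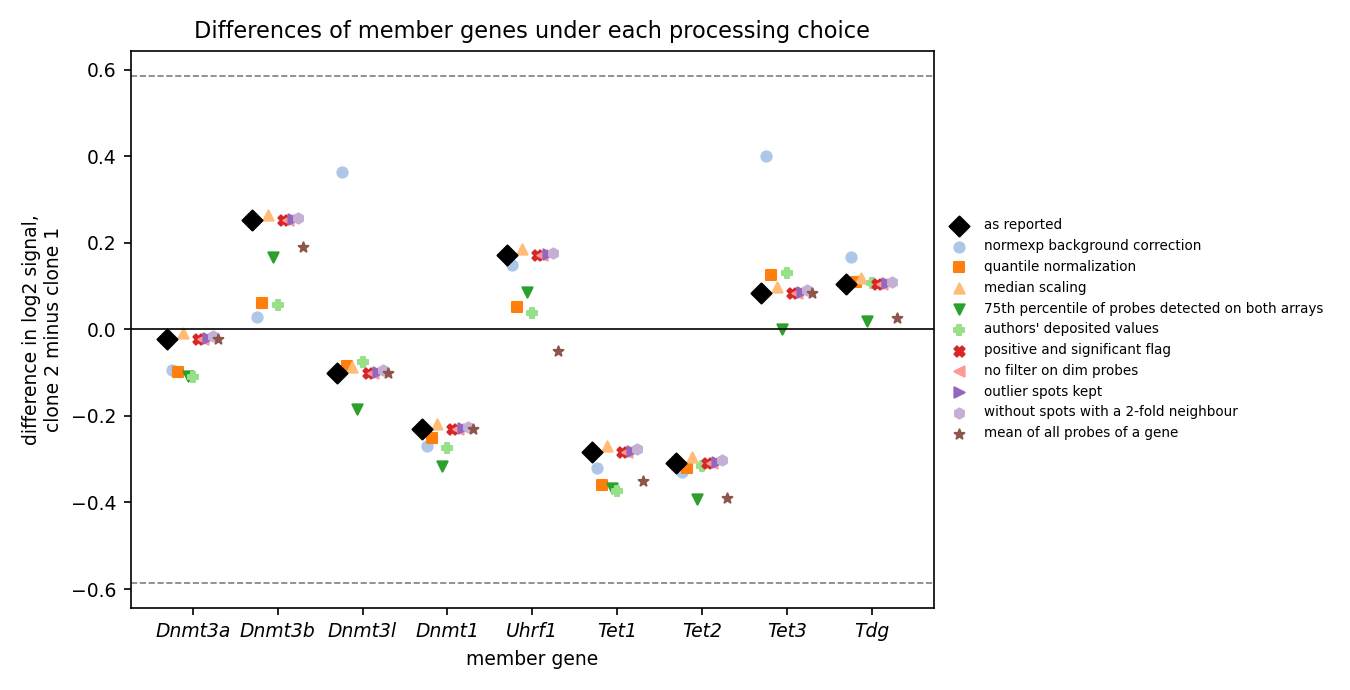
Difference in log2 signal, clone 2 minus clone 1 (vertical axis), of each of the 9 genes as reported (black diamonds) and under 10 other processing choices, with dashed lines at 1.5-fold. Tet1 and Tet2 stay between -0.39 and -0.27, while normexp correction turns Dnmt3l to 0.36 and the mean of probes turns Uhrf1 to -0.05.

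The promoters of the genes differ widely in CpG content, the feature that these enzymes act on. RefSeq (GRCm38.p6) lists 16 start sites for the 9 genes, and the 250 bases before each were examined. By a GC content above 50% and an observed over expected CpG ratio above 0.6, 8 of the 16 windows were CpG-rich, against 30.8% of 32851 windows of all genes. The Tet2 window held 51 CpG sites, Dnmt3b 21, Tdg 19, Tet3 17 and Tet1 15. Genes with several start sites had 38, 40 and 15 in Dnmt3a, 10 and 30 in Uhrf1, 26, 7 and 2 in Dnmt1 and 5, 4 and 3 in Dnmt3l. The median was 16 over the 16 windows and 6 over all windows. The letters GGGCGG (the GC box, either strand, which itself contains a CpG) occurred in 11 of 16 windows and in 32.7% of all windows. The letters CCAAT, either strand, occurred in 6 of 16 and in 33.8% of all. These matches describe sequence only. Methylation was not analysed here, and which start sites the clones use cannot be read from the probes. The windows of Tet1 and Tet2, both lower in clone 2, and of Dnmt3b, whose brightest probe was higher there, are printed on the strand of the gene with CpG sites in capitals. They lie at chr10:62887325-62887574 and chr3:133544391-133544640 on the minus strand and at chr2:153649199-153649448 on the plus strand of GRCm38.p6.
Tet1 promoter: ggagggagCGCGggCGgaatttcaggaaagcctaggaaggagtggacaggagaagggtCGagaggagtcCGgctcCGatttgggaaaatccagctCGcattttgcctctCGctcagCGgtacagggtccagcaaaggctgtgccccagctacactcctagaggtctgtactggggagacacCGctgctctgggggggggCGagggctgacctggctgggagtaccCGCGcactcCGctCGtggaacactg
Tet2 promoter: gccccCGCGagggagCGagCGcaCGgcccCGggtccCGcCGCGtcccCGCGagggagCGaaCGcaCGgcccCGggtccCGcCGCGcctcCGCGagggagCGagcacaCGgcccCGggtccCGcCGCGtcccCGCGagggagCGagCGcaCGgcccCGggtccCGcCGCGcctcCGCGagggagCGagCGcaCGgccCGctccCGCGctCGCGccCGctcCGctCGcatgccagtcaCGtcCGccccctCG
Dnmt3b promoter: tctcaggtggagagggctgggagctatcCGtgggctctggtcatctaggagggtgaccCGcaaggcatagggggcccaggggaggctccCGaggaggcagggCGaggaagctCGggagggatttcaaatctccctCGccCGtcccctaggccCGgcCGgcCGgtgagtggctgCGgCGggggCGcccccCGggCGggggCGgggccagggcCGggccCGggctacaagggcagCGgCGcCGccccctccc

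Genes that work with these enzymes were mostly detected on both arrays, where 61.3% of all genes were. None of those detected on both arrays was 2-fold apart, beside 2.56% of all genes. At 1.5-fold the counts were 1 of 9 readers, 1 of 14 methylation partners and 2 of 8 TET partners and deaminases. They were 1 of 13 repair genes and 0 of 12 methyl donor genes, while the share over all genes was 9.1%. With so few genes per list these shares are not compared further. Of 10 readers of methylated CpG, 9 were detected on both arrays, with a median difference of 0.050. Mbd1, which binds methylated CpG through its MBD domain, had -0.56 in clone 2 and -1.45 in clone 1, 1.85-fold higher in clone 2. Its second probe was detected in clone 2 only. Zbtb38, a zinc finger reader, passed the detection limit in clone 2 only, with -4.30 there and -4.45 in clone 1. This difference of 0.16 (1.12-fold) is about the spread between repeated dim spots. By the positive and significant flag all 10 readers were detected on both arrays.

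All 14 partners of maintenance and de novo methylation were detected on both arrays, 7 of them higher and 7 lower in clone 2, with a median of 0.0053. Hells, a chromatin remodeller needed for normal methylation of repeats, had -0.37 in clone 2 and 0.23 in clone 1, 1.52-fold lower in clone 2. Pcna, the replication clamp that DNMT1 binds, had 4.74 in clone 2 and 4.94 in clone 1. Usp7, a deubiquitinase that binds DNMT1 and UHRF1, had 4.15 and 3.94 in clones 2 and 1. Its second probe had the opposite sign, with -1.12 in clone 2 and -0.91 in clone 1.

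Of 9 TET partners and cytidine deaminases, 8 were detected on both arrays, with a median of 0.053. Cxxc4, which binds unmethylated CpG and TET2, was detected in neither clone. Ogt, a glycosyltransferase bound to TET proteins, had -0.67 in clone 2 and -0.53 in clone 1. The deaminase genes Apobec1 (1.90-fold lower in clone 2) and Apobec3 (1.67-fold higher, with a second probe at -0.51) were singled out after their values were seen.

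All 13 genes of base excision repair and the Gadd45 family were detected on both arrays, with a median difference of 0.00039. Apex1, the endonuclease that cuts the site TDG leaves, had 3.28 in clone 2 and 3.45 in clone 1, and the scaffold Xrcc1 had 3.72 and 3.62 in clones 2 and 1. Neil3, a glycosylase singled out after its value was seen, was 1.78-fold lower in clone 2. All 12 genes that supply S-adenosylmethionine or 2-oxoglutarate were detected as well, with a median of -0.065 and none 1.5-fold apart. Mat2a, which makes S-adenosylmethionine, had 3.90 in clone 2 and 3.91 in clone 1. Its second probe had -0.56 in clone 2 and -0.18 in clone 1, a difference of -0.38.

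Germline genes formed the list least often detected. Several of them, such as Dazl, Mael and Sycp3, are known to be silenced by methylation of their promoters in somatic cells. Of 13, 2 were detected on both arrays, where 61.3% of all genes were. They were Taf7l (-0.0049 in clone 2 and -0.068 in clone 1) and Brdt (-2.86 and -2.81). By these brightest probes the differences were 0.063 and -0.051, while a second Brdt probe, detected in clone 1 only, had -4.93 in clone 2 and -4.53 in clone 1. Ddx4 and Sycp1 were detected in clone 1 only, at least 1.22-fold and 5.26-fold higher there. The Ddx4 signal in clone 1, -4.29, was close to the lowest detected signal of -4.56. Of all 22753 genes, 14476 were detected in clone 1, and 13947 on both arrays. Dazl, Mael, Sycp3, Asz1, Tex11, Stk31, Tdrd1, Hormad1 and Slc25a31 were detected in neither clone. How far promoter methylation bears on these signals was not tested.

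**Figure D5:**
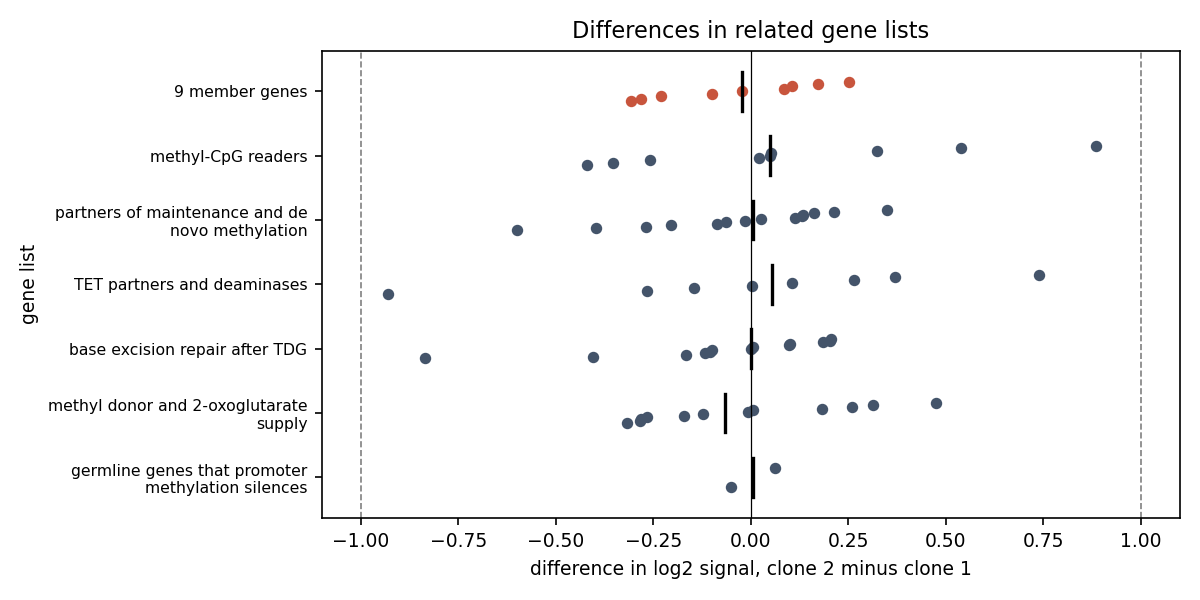
Difference in log2 signal, clone 2 minus clone 1 (horizontal axis), of the 9 DNA methylation genes and of the genes of 6 related lists detected on both arrays (1 point per gene, black bars for medians, dashed lines at 2-fold). The medians lie between -0.065 and 0.053, no point passes 2-fold, and the points farthest from 0 are Apobec1 (1.90-fold lower in clone 2) and Mbd1 (1.85-fold higher).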

How the data were processed

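Cy3-labelled cRNA from total RNA of 2 EpiSC clones was hybridised to 1-colour Agilent arrays of design 026655, both on 1 slide. The deposited values are spot intensities from Feature Extraction 11.0.1.1, background-subtracted, with flags and mm9 positions, per the file headers. A second table, the authors' deposited one, holds normalized linear intensities (column medians 65.8 each) by a method the sources do not state. Its log2 values correlated with the scanner values at 1.00 in clone 2 and 0.999 in clone 1 over 39220 probes, and it served as an alternative.

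Outlier spots were left out (246 in clone 2, 277 in clone 1, of 43020 non-control spots). Log2 values of a probe's spots were averaged and scaled to the 75th percentile of probes. Detection required the well-above-background flag on at least 50% of spots. RefSeq (GRCm38.p6) named probes by accession (26055), symbol (3195) or older symbol (930), and 9249 kept none.

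No test is possible with 1 array per clone, and this number limits the precision. Folds of genes detected on 1 array are taken against the dim array's larger value of probe signal or lowest detected signal. They are lower bounds where the lowest detected signal was used, as for Ddx4 and Sycp1, and measured ratios otherwise. The steps were tested on simulated data. The 9 genes and all lists were chosen with earlier results of these data known. Named list genes are those 2-fold apart, those not detected on both arrays and up to 4 others in list order, with exceptions marked and 1 gene not reported here. Alternatives were normexp (limma 3.58.1, offset 50), quantile normalization, scaling by the median or by detected probes, the authors' values, the positive-and-significant flag, no filter, outliers kept, spots beside a 2-fold neighbour left out, and the mean of probes.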

Additional observations from a re-analysis of the deposited data

How the results depend on the processing

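The count of the 9 genes detected on both arrays (9), the counts at least 2-fold and 1.5-fold apart (0 each) and the median difference, between -0.11 and 0.027, stayed within 1 technical SD (0.086) of the reported values or, for counts, within 1.5 times, under every alternative run. With normexp correction the medians were 0.20 for methyl-CpG readers, -0.092 for base excision repair, 0.047 for methyl donor genes and 0.13 for germline genes. The median of methylation partners was -0.088 with quantile normalization and -0.098 with the authors' deposited values. With scaling by probes detected on both arrays 1 of 8 TET partners and deaminases, Apobec1, was 2-fold apart. With the positive and significant flag 5 of 13 germline genes were detected on both arrays, 1 of them 2-fold apart, with a median of -0.27. Over all genes 5.37% were 2-fold apart in that setting. Without a filter 3 of 13 germline genes were 2-fold apart, where 6.46% of all genes were. Of these Sycp1 and Ddx4 were lower in clone 2 and Mael was higher. With the mean of probes the germline median was -0.082. The cause was not tested.

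Over all genes, 356 of 13928 were 2-fold apart (212 higher and 144 lower in clone 2), against 204 with normexp correction (141 and 63). The counts were 974 of 18152 with the positive and significant flag and 1469 of 22753 without a filter, where more dim genes are counted. With scaling by detected probes the split was 164 higher and 176 lower. No paired analysis was possible because the clones share only replicate number 1. Leaving out a replicate was likewise not possible with 1 array per clone. Signal over background limits Dnmt3l, Tet3 and the dimmer Tet2 and Tdg probes most.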
